A study of Mus musculus with 10 samples.

Results

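Hepatic glucose production and glycogen storage were followed through 8 genes chosen by name: Pck1, G6pc, Fbp1, Pcx, Pklr, Gys2, Pygl and Slc2a2. All 8 were found by symbol among the 49585 genes of both deposited count tables, and all 8 are described here. The study is named for liver cancer after loss of the Rb gene family in mice, and its extract protocol describes digesting livers or lesions and sorting YFP-positive cells, in which Cre had recombined floxed alleles. It has 10 bulk RNA samples, as 5 groups of 2. Of these, the organoids labelled Sox9-derived and Ck19-derived could be tied to count columns, and the Epcam-, Epcamhigh and Thy1+ cells (6 samples) are not analysed here. The Sox9 name occurs in 2 pairs of columns. One pair carries an added tag, TKO, which the labels do not explain. The libraries compared are therefore the TKO-tagged Sox9 pair, the untagged Sox9-derived organoid pair and the Ck19-derived organoid pair, 2 libraries each. The TKO-tagged columns were deposited in a different count table from all organoid columns. Any difference in handling between the count tables therefore cannot be told apart from a difference between the TKO-tagged and organoid pairs. The labels name no strain, age, Cre driver, treatment or culture medium for any of the 6 libraries, and give no genotype beyond the series title and the tag. Nothing says that the libraries of a pair came from separate animals or cultures, so p-values measure only the spread between these libraries, which may be technical.

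Gluconeogenesis makes glucose from lactate, alanine and glycerol, mainly in the liver. Pyruvate carboxylase (Pcx) makes oxaloacetate from pyruvate, Pck1 turns it into phosphoenolpyruvate in the cytosol, Fbp1 removes a phosphate from fructose bisphosphate, and G6pc frees glucose from glucose 6-phosphate. Pklr, the liver and red cell pyruvate kinase, runs the last step of glycolysis in the opposite direction. Gys2 is the liver glycogen synthase, Pygl the liver glycogen phosphorylase, and Slc2a2 (GLUT2) the glucose transporter of hepatocytes. Hepatocytes carry most of these functions, whereas bile duct epithelium, which expresses Krt19 and Sox9, is not known as a site of glucose output.

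The TKO-tagged pair stood apart from both organoid pairs before any gene of glucose metabolism was considered. A list of 12 hepatocyte markers was summed in CPM, the fragments of a gene scaled to the assigned total of its library. The sums were 59521 and 48696 in the TKO-tagged, 172 and 545 in the Sox9-derived and 125 and 160 in the Ck19-derived libraries. In the organoid pairs most of this was Ttr, with means of 352 CPM (Sox9-derived) and 126 CPM (Ck19-derived). There 2 and 3 of the 12 markers reached 1 CPM in both libraries of the pair, against all 12 in the TKO-tagged pair. For 10 biliary markers the sums were 507 and 1201 CPM in the TKO-tagged pair, 32219 and 27907 CPM in the Sox9-derived pair and 15382 and 15112 CPM in the Ck19-derived pair. Spp1 was their largest part, with means of 706, 20554.5 and 7589 CPM in that order. Sox9, on the same list, had means of 84.9, 565 and 87.7 CPM, so it was level between the TKO-tagged and Ck19-derived pairs. In the edgeR tests below, 7 of the 10 were called lower against the Ck19-derived and 6 against the Sox9-derived pair. Of all tested genes, 14% and 9.02% were. Krt19, which defines the Ck19 label, had 0.619 and 1.61 CPM in the TKO-tagged pair, 3120 and 2987 CPM in the Sox9-derived pair and 2453 and 1945 CPM in the Ck19-derived pair. Markers of mesenchymal, endothelial and myeloid cells and of red cells also had their highest sums in the TKO-tagged libraries. These were 331 and 175 CPM, 96.3 and 69.3 CPM, 752 and 678 CPM, and 216 and 1749 CPM, while in the organoid libraries the mesenchymal, endothelial and erythroid sums were at most 1.79 CPM and the myeloid sums at most 84.9 CPM. Xist, which is transcribed from the inactive X chromosome, had at most 0.0375 CPM in the TKO-tagged and Sox9-derived libraries and 60.3 and 57.1 CPM in the Ck19-derived libraries, so Sox9 or Ck19 origin and the sex of the animals cannot be told apart. Rb1 had 4.50 and 5.40 CPM in the TKO-tagged, 14.5 and 12.6 CPM in the Sox9-derived and 21.0 and 21.8 CPM in the Ck19-derived libraries, and counts over a whole gene do not check a deletion. Depth was 53280136 and 59664959 fragments in the TKO-tagged, 36606008 and 33154972 in the Sox9-derived and 31883180 and 32747944 in the Ck19-derived libraries. In bulk RNA, fewer cells of a type and less RNA per cell cannot be told apart.

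Promoters of the genes were read from the RefSeq table on GRCm38.p6, which runs from 250 bases before to 50 bases after each start. It held 7 of the 8 genes, with 2 starts each for Pcx and Pklr, and it held no entry for Gys2. Shown are the 4 windows that contained a motif searched for, the first pair from genes that were nearly silent in both organoid pairs and the second pair from genes detected in every library. Capitals mark the motif: TGACG (read here as its complement CGTCA), the core of a cAMP response element, in Pck1 and Pygl; TGTTTTG, a form of the forkhead factor site, in G6pc; and CACGTG, the E-box, in Pcx.
Pck1 promoter (chr2:173152823-173153122, plus strand): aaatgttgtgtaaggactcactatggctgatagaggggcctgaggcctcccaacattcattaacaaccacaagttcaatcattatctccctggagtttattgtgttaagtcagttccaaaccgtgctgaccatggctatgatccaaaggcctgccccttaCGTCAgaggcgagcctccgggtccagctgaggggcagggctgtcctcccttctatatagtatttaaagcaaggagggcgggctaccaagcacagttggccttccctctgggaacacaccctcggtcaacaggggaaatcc
G6pc promoter (chr11:101367466-101367765, plus strand): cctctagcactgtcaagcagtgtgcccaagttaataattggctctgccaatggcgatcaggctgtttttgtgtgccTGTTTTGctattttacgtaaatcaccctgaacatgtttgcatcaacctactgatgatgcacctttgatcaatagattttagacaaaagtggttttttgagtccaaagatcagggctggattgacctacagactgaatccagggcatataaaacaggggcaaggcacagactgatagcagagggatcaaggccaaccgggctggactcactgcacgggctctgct
Pcx promoter, first start (chr19:4510222-4510521, plus strand): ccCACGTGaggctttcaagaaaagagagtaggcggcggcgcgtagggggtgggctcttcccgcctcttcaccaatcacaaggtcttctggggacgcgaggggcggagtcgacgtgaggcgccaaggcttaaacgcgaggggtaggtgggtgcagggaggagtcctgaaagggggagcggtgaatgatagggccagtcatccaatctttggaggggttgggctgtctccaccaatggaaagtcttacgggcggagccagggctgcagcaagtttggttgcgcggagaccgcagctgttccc
Pygl promoter (chr12:70227634-70227933, minus strand): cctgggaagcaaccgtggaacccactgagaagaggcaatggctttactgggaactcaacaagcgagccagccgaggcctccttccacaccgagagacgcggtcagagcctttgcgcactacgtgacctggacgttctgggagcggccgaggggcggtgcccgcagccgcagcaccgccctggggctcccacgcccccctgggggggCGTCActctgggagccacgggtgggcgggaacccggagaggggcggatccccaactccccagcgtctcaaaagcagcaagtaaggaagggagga

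Counted from the start of transcription, the motif of Pck1 begins at base -90 and that of G6pc at base -174, and those of Pygl and Pcx begin at bases -44 and -248. On either strand, TGACG is found in 20.8%, TGTTTTG in 6.28% and CACGTG in 7.15% of the 32851 promoter windows of the same length. The forkhead core TGTTTAC (3.65% of windows), the HNF4 core CAAAGTCCA (0.475%) and the HNF1 palindrome (0.00913%) had no match in the windows of these genes. A match is a description of letters, not evidence of a bound factor. The windows of Pcx (first start) and Pygl were rich in CpG, with 20 and 22 CpG dinucleotides and 61.7% and 67.0% GC. The other 7 windows, which include the second Pcx start, held 2 to 8 CpG dinucleotides and 46.7% to 57.3% GC, against medians of 7 and 52.7% over all windows.

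All 8 genes were present in both TKO-tagged libraries, and 5 of them were at or near 0 in both organoid pairs. Their sum was 2596 and 3573 CPM in the TKO-tagged libraries, 41.6 and 68.2 CPM in the Sox9-derived libraries and 113 and 90.3 CPM in the Ck19-derived libraries. Pcx and Pklr made up most of the sum in every organoid library, with Pygl next in the Ck19-derived pair. The 5 genes near 0 were Pck1, G6pc, Fbp1, Gys2 and Slc2a2.

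**Figure D1:**
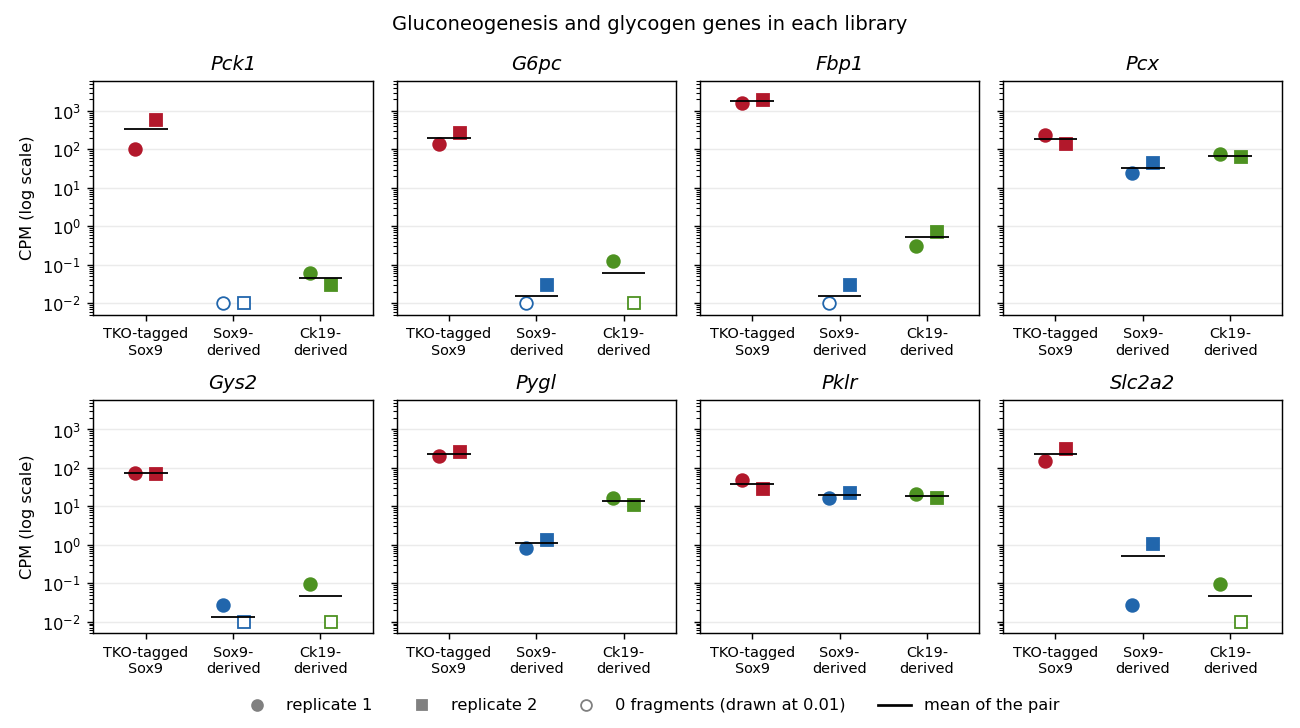
CPM of each of the 8 genes in each library (log axis; circles, replicate 1; squares, replicate 2; open symbols, 0 fragments, drawn at 0.01; black line, mean of the pair). Pck1, G6pc, Fbp1, Gys2 and Slc2a2 drop to about 1 CPM or less in every organoid library, while Pcx and Pklr lie between 16.1 and 75.7 CPM there.

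The enzymes that carry pyruvate carbon to glucose were read in order. Pcx (chromosome 19, 4510472 to 4621752, GRCm38), the mitochondrial entry step, had 231 and 136 CPM in the TKO-tagged libraries, 23.9 and 43.5 CPM in the Sox9-derived libraries and 75.7 and 62.8 CPM in the Ck19-derived libraries. The TKO-tagged pair was highest and the Sox9-derived pair lowest. Pck1 (chromosome 2, 173153048 to 173159273) had 103 and 584 CPM in the TKO-tagged libraries, no fragment in either Sox9-derived library, and 2 and 1 fragments (0.0627 and 0.0305 CPM) in the Ck19-derived libraries. It was the gene on which the TKO-tagged libraries differed most, replicate 2 being far above replicate 1. A count of 0 allows up to 3 fragments, and against that floor over the pair Pck1 was at least 8296-fold higher in the TKO-tagged pair than in the Sox9-derived pair.

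Fbp1 (chromosome 13, 62864753 to 62888282) was the most abundant of the 8, at 1645 and 1924 CPM in the TKO-tagged libraries, 0 and 0.0302 CPM in the Sox9-derived libraries and 0.314 and 0.733 CPM in the Ck19-derived libraries. These correspond to 87654 and 114802 fragments in the TKO-tagged pair, 0 and 1 in the Sox9-derived pair and 10 and 24 in the Ck19-derived pair. Scaled to library totals, the TKO-tagged pair held 3407 times the Ck19-derived level (exact binomial 95% interval 2438 to 4920). G6pc (chromosome 11, 101367561 to 101377903), the last step of glucose release, had 135 and 264 CPM in the TKO-tagged libraries, 0 and 1 fragments in the Sox9-derived libraries and 4 and 0 fragments in the Ck19-derived libraries. The TKO-tagged level was 14144 times the Sox9-derived level (2538 to 558669) and 3276 times the Ck19-derived level (1279 to 12024). Counting error is all that these intervals, and the floor of 3 fragments, account for.

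Among the glycogen genes, the synthase and the phosphorylase differed in level in the organoids. Gys2 (chromosome 6, 142422613 to 142473109) had 75.1 and 69.8 CPM in the TKO-tagged libraries, 1 and 0 fragments in the Sox9-derived libraries and 3 and 0 fragments in the Ck19-derived libraries. That is 1557 times the Ck19-derived level (533 to 7553) and 5043 times the Sox9-derived level (905 to 199193). Pygl (chromosome 12, 70190811 to 70231488) had 202 and 260 CPM in the TKO-tagged libraries, 0.847 and 1.33 CPM in the Sox9-derived libraries and 16.7 and 10.7 CPM in the Ck19-derived libraries. For Pygl the Ck19-derived libraries lay between the TKO-tagged and the Sox9-derived ones.

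Pklr (chromosome 3, 89136142 to 89146784) differed least. Its values were 49.6 and 28.6 CPM in the TKO-tagged libraries, 16.7 and 22.3 CPM in the Sox9-derived libraries and 20.4 and 16.1 CPM in the Ck19-derived libraries. The organoid pairs overlapped, and the TKO-tagged pair lay above both. Another gene, Hcn3, shares 22.0% of the exon bases of Pklr, and the counting ignored strand, whereas no exon base of the other 7 genes is shared. Slc2a2 (chromosome 3, 28697903 to 28731359) had 155 and 308 CPM in the TKO-tagged libraries, 1 and 34 fragments in the Sox9-derived libraries and 3 and 0 fragments in the Ck19-derived libraries. Thus 34 of the 35 Sox9-derived fragments of this transporter came from replicate 2, at 1.03 CPM. Scaled in the same way, the TKO-tagged pair had 470 times the Sox9-derived level (338 to 674) and 5076 times the Ck19-derived level (1737 to 24614).

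Levels of different genes were compared per exon length, as FPKM. In the TKO-tagged pair the order of mean FPKM was Fbp1 (1049), Pck1 (100.1), G6pc (82.5), Pygl (60.4), Pcx (43.0), Slc2a2 (40.2), Gys2 (27.3) and Pklr (12.1). Fbp1 at the top and Pklr at the bottom were separated from their neighbours in both libraries, while from Pck1 to Gys2 the ranges of every neighbouring pair overlapped. In the Ck19-derived pair the order was Pcx (16.2), Pklr (5.64), Pygl (3.58) and Fbp1 (0.307), each separated from the next. G6pc, Gys2, Pck1 and Slc2a2 followed at or under 0.0260 FPKM, with overlapping ranges. The Sox9-derived pair gave Pcx (7.89) and Pklr (6.03), which overlapped, then Pygl (0.284) and Slc2a2 (0.0915), and the remaining 4 genes at or under 0.00886 FPKM. Fbp1 thus led in one kind of library and was nearly silent in the others, whereas Pcx ranked first in both organoid pairs.

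The comparison given first set the TKO-tagged libraries against the Ck19-derived organoids, in edgeR's quasi-likelihood test with TMM scaling and Benjamini-Hochberg adjustment. The planned comparison was that of the organoid pairs with each other, given further below. The TKO-tagged columns entered it as another reading of the Sox9-derived samples. Of 17938 genes tested, 2683 were called higher and 2507 lower at an adjusted p under 0.05, 28.9% in all. All 8 genes were called higher, where 15% of all tested genes were. Only 4 of the 8 reached the count filter in both Ck19-derived libraries, and the other 4 (Pck1, G6pc, Gys2 and Slc2a2) were tested because of their TKO-tagged counts, so the count of 8 is not read further. Pygl had a log2 fold change of 4.83 (SE 0.37, adjusted p = 0.00219), Pcx of 2.17 (SE 0.37, adjusted p = 0.0162) and Pklr of 1.86 (SE 0.40, adjusted p = 0.0264) in edgeR. For Fbp1, which also reached the filter in both Ck19-derived libraries, the edgeR adjusted p was 0.0011. The fitted folds of Fbp1 and of the 4 genes below the filter depend on the prior count and are not read as sizes. Their fragments are given above, with ratios to the Ck19-derived pair for all but Pck1, and these account for counting error only. No p is given for those 4. With library totals in place of TMM factors edgeR called 1960 genes higher and 5158 lower, all tested genes shifted by a median of -0.76 on the log2 scale, and Pklr was no longer called (log2 fold change 1.10, edgeR adjusted p = 0.0718). Without Ck19-derived replicate 1 the calls of Pck1, Pcx and Pklr were lost in edgeR, as they were without Ck19-derived replicate 2. Each such fit leaves 1 library in an arm, and Pck1 was tested because of its TKO-tagged counts, so its call is not read. The marker sums given above move with this comparison, and their part in it was not tested.

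A comparison of the TKO-tagged libraries with the Sox9-derived organoids was added after the data had been seen. It shares the TKO-tagged libraries with the first, so the comparisons are not independent. edgeR tested 17333 genes and called 2313 higher and 1563 lower, 22.4% in all. All 8 genes were called higher here too, where 13.3% of all tested genes were. Of the 8, 3 (Pcx, Pklr and Pygl) reached the count filter in both Sox9-derived libraries, and the other 5 were tested because of their TKO-tagged counts, so this count of 8 is not read further either. Pygl had a log2 fold change of 8.52 (SE 0.43, adjusted p = 0.0035), Pcx of 3.25 (SE 0.49, adjusted p = 0.0211) and Pklr of 1.81 (SE 0.41, adjusted p = 0.0436) in edgeR. For Fbp1, Gys2, G6pc, Pck1 and Slc2a2 no test is given. Their fragments are given above, with ratios for Gys2, G6pc and Slc2a2 and a lower bound for Pck1. These account for counting error only, not for the spread between libraries. With library totals edgeR called 1797 genes higher and 4069 lower, all tested genes shifted by a median of -0.80, and Pklr lost its call (log2 fold change 1.00, edgeR adjusted p = 0.115). Pcx and Pklr lost theirs in edgeR without TKO-tagged replicate 1, without Sox9-derived replicate 1 and without Sox9-derived replicate 2. Each such fit leaves 1 library in an arm. Pck1 and Slc2a2 also missed the threshold in some fits with a library left out. They were tested because of their TKO-tagged counts, so those fits are not read for them. The hepatocyte, biliary, mesenchymal, endothelial, myeloid and erythroid sums given above move with this comparison too, and their part was not tested.

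The organoid pairs were then compared with each other, which sets cultures of Sox9 origin beside cultures of Ck19 origin. Pygl had the lowest adjusted p of the 4 genes tested. The Sox9-derived pair held 75 Pygl fragments and the Ck19-derived pair 882, a ratio of scaled totals of 0.0788 (exact binomial 95% interval 0.0614 to 0.0998). In edgeR its log2 fold change was -3.65 (SE 0.50) with an adjusted p of 0.0737, which misses the threshold. It was not called with relative log expression factors (adjusted p = 0.0732), library totals (0.071) or a replicate block (0.156) in edgeR, or in limma-voom (0.0632). DESeq2 called it (log2 fold change -3.66, adjusted p = 9.4e-09), and so did edgeR without a count filter (adjusted p = 0.0146). With single libraries left out, the edgeR adjusted p was 0.00628 and 0.00389 without Sox9-derived replicates 1 and 2 (log2 fold changes -3.35 and -4.01), and 0.491 and 0.447 without Ck19-derived replicates 1 and 2 (-3.29 and -3.97). Each such fit leaves 1 library in an arm, which is assumed to vary like the other group, so those values are not read as support for a call. Pcx had a log2 fold change of -1.03 (SE 0.35, edgeR adjusted p = 0.244), and of -1.54 (adjusted p = 0.0193) without Sox9-derived replicate 2, again with 1 library in that arm. Its values were 23.9 and 43.5 CPM in the Sox9-derived libraries and 75.7 and 62.8 CPM in the Ck19-derived libraries.

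Pklr showed no difference that could be detected between the organoid pairs (log2 fold change 0.10, SE 0.30, edgeR adjusted p = 0.908), and its sign turned without Sox9-derived replicate 2 or without Ck19-derived replicate 2. Fbp1 had 1 fragment in the Sox9-derived pair and 34 in the Ck19-derived pair, a ratio of scaled totals of 0.0272 (0.00067 to 0.162), with an edgeR adjusted p of 0.174. Slc2a2 had 35 fragments in the Sox9-derived pair and 3 in the Ck19-derived pair, a ratio of 10.8 (3.41 to 54.9) that rests on replicate 2, and it lay below the count filter, as did Pck1, G6pc and Gys2. For G6pc the counts were 1 and 4 fragments in the Sox9-derived and Ck19-derived pairs, a ratio of 0.232 (0.0047 to 2.34), and Pck1 and Gys2 were at or under the floor of 3 fragments in both pairs. None of the 4 genes tested was called in edgeR, where 95 of 16653 genes were (0.57%), 31 of them higher (0.186%) and 64 lower (0.384%). At an unadjusted p under 0.05 edgeR counted 2792 genes, and DESeq2 called 1512 genes, Pygl being the only one of the 8 among them. By name alone the TKO-tagged columns could also be taken as the Sox9-derived samples, but their marker sums given above are unlike those of the untagged pair. Put in place of the untagged columns, they give the TKO-tagged comparison with the Ck19-derived organoids again. The log2 fold changes of Pcx and Pygl are then 2.17 and 4.83, and the sign of Fbp1 turns as well.

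Several of these enzymes have a sister gene that serves other tissues, and the share of the liver form was computed from the FPKM of both, a choice made after the values were seen. In the TKO-tagged libraries the liver form made up 93.7% and 96.8% for G6pc beside G6pc3, 100% and 99.96% for Fbp1 beside Fbp2, 100% and 98.1% for Gys2 beside Gys1, 83.8% and 92.96% for Pygl beside Pygb, and 75.2% and 96.2% for Slc2a2 beside Slc2a1. Pck1 made up 49.4% and 90.4% beside the mitochondrial Pck2, so that replicate 1 held both forms in nearly equal measure. In every Sox9-derived library the liver form was at most 1.56% for these 6 genes. In the Ck19-derived libraries it was at most 1.65% for 5 of the 6, the exception being Pygl at 25.5% (Wilson 95% interval 23.7% to 27.3%) and 18.0% (16.4% to 19.8%). Pyruvate kinase was the mixed case, with Pklr at 50.2% and 46.1% beside Pkm in the TKO-tagged libraries and at 0.771% to 1.53% in the 4 organoid libraries. Pkm itself had 76.1 and 51.7 CPM in the TKO-tagged libraries, 2865 and 2209 CPM in the Sox9-derived libraries and 4060 and 2534 CPM in the Ck19-derived libraries.

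**Figure D2:**
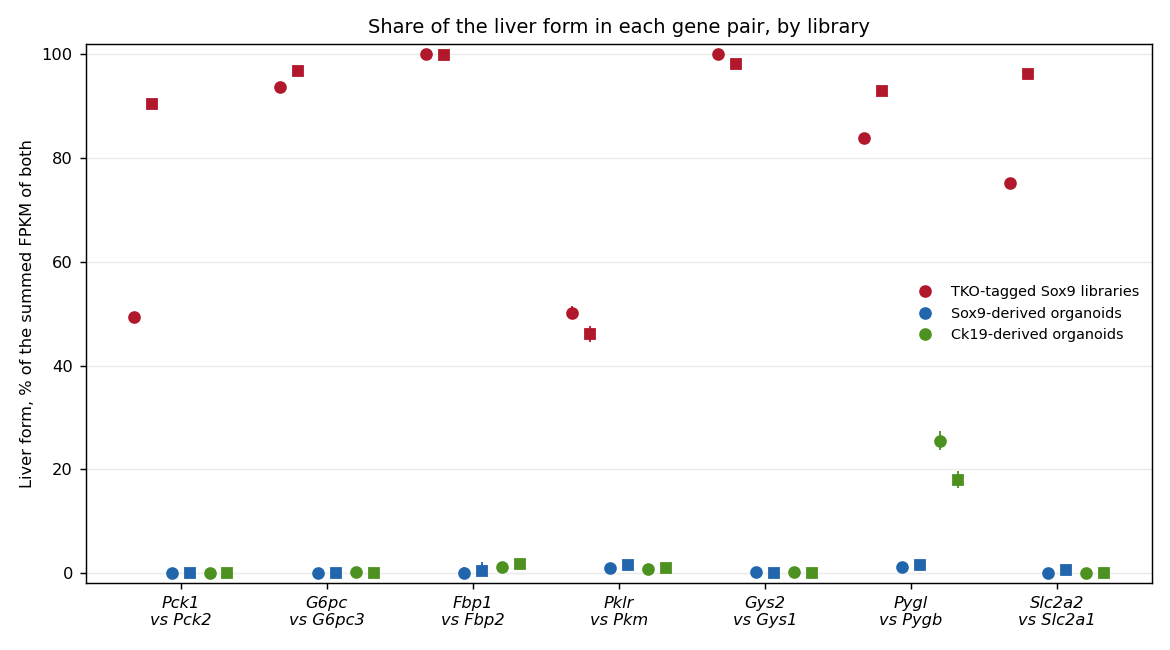
Share of the liver form in the summed FPKM of each gene pair, in percent, in each library (circles, replicate 1; squares, replicate 2; vertical lines, Wilson 95% intervals, mostly smaller than the symbols). TKO-tagged libraries lie at 46.1% or higher, Sox9-derived libraries at 1.56% or lower, and Ck19-derived libraries lie at 1.65% or lower except for Pygl.

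Around the 8 genes, 4 lists of related genes were read in the same tests: 14 paralogs of other tissues, 20 genes of glycogen handling, 35 of substrate supply and shared steps, and 30 regulators. In each comparison with the TKO-tagged pair some of their members passed the filter only through one kind of library, so their counts and medians are descriptions. Between the organoid pairs none of the listed genes tested (10, 18, 33 and 24 in that order) was called in edgeR, where 0.57% of all tested genes were. In DESeq2 14 were called, among the larger total of DESeq2 calls given above. Neither count is read as a result about the lists. The median log2 fold changes of Sox9-derived over Ck19-derived organoids were -1.15 over the 10 paralogs tested, -0.35 over 18 glycogen genes, -0.29 over 33 supply genes and 0.13 over 24 regulators, against 0.01 over all genes tested. The most abundant members per length in these 4 libraries were Pkm, Slc2a1 and Pck2 among the paralogs, Pgm1, Ugp2 and Stbd1 among the glycogen genes, Ldha, Aldoa and Tpi1 in the supply list, and Cebpb, Txnip and Srebf1 among the regulators. Slc2a1 (GLUT1) had 258 and 113 CPM in the Sox9-derived libraries and 547 and 291 CPM in the Ck19-derived libraries, and Pgm1, which links glucose 1-phosphate and glucose 6-phosphate, had 158 and 120 CPM in the Sox9-derived against 446 and 262 CPM in the Ck19-derived libraries. Ldha, the muscle-type lactate dehydrogenase subunit, had 5105 and 3352 CPM in the Sox9-derived libraries and 7450 and 5194 CPM in the Ck19-derived libraries. Cebpb differed little, at 240 and 300.2 CPM in the Sox9-derived libraries and 223 and 195 CPM in the Ck19-derived libraries.

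Among the paralogs of other tissues, more were called lower than higher in the TKO-tagged libraries. Against the Ck19-derived organoids 5 of 13 tested fell and 2 rose in edgeR, where 14% of all tested genes were called lower and 15% higher, with a median log2 fold change of -2.72 against -0.07 over all genes, and 10 of the 14 reached the filter in both Ck19-derived libraries. Pkm, the pyruvate kinase of most tissues, fell by 4.93 on the log2 scale, Hk1 fell by 4.83, Hk2 fell by 4.46, the glucose transporter Slc2a1 fell by 3.67 and the widely expressed glucose phosphatase G6pc3 fell by 2.72. Of those that rose, the muscle phosphorylase Pygm did so at a low level, with 1.84 and 1.53 CPM in the TKO-tagged against 0.0314 and 0.244 CPM in the Ck19-derived libraries. Compared with the Sox9-derived organoids, 3 of 13 fell (log2 fold changes of -4.50 for Pkm, -3.42 for Hk1 and -2.40 for G6pc3) and 2 rose, with a median of -2.14 against -0.01 over all genes. There 9.02% of all tested genes were called lower and 13.3% higher. Of these, the hexokinase Hk3 was at a low level, with 0.300 and 0.570 CPM in the TKO-tagged libraries against 0.0273 and 0.0302 CPM in the Sox9-derived libraries.

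Counts of glycogen handling genes called higher lay near the share over all genes tested, and are no result about the list. Of all genes tested, 15% rose against the Ck19-derived and 13.3% against the Sox9-derived organoids. Against the Ck19-derived organoids 2 of 19 genes tested rose, with a list median of 0.13 against -0.07 over all genes, and one of them was Ugp2, which makes UDP-glucose (log2 fold change 1.09, edgeR adjusted p = 0.026). Ugp2 had 216 and 208 CPM in the TKO-tagged against 176 and 160 CPM in the Ck19-derived libraries. Of 18 tested against the Sox9-derived organoids, the branching enzyme Gbe1 (2.50), the phosphatase targeting subunit Ppp1r3b (2.23) and Ugp2 (1.30) rose, with edgeR adjusted p = 0.0411, 0.0307 and 0.029, and the median was 0.76 against -0.01 over all genes. Gbe1 had 58.2 and 51.0 CPM in the TKO-tagged libraries against 24.6 and 9.02 CPM in the Sox9-derived libraries, and Ppp1r3b had 12.5 and 17.7 CPM in the TKO-tagged against 6.31 and 4.89 CPM in the Sox9-derived libraries. With library totals in place of TMM factors the calls of Ugp2, Gbe1 and Ppp1r3b were lost. No member of the list was called lower in either comparison, where 14% and 9.02% of all tested genes were, and this is not read further. Log2 fold changes lay below 0 for 7 of the 19 genes against the Ck19-derived and 4 of the 18 against the Sox9-derived organoids.

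Substrate supply and the steps shared with glycolysis held calls in both directions. Against the Ck19-derived organoids 13 of 35 rose and 6 fell (median log2 fold change 0.77), where 15% of all tested genes rose and 14% fell. Against the Sox9-derived organoids 13 rose and 5 fell (median 0.84), where 13.3% and 9.02% of all tested genes did. The aldolases Aldoa and Aldoc, of muscle and brain, fell, with log2 fold changes of -2.82 and -3.43 against the Ck19-derived organoids and of -1.98 and -2.04 against the Sox9-derived organoids. Slc37a4, the glucose 6-phosphate carrier that works with G6pc, had 149.9 and 266 CPM in the TKO-tagged, 33.8 and 41.4 CPM in the Sox9-derived and 44.1 and 31.6 CPM in the Ck19-derived libraries. Gckr, a regulator of hepatic glucose phosphorylation, had 92.3 and 109 CPM in the TKO-tagged libraries and at most 0.153 CPM in any organoid library.

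Gpt and the 7 genes named next were called higher against both organoid pairs in edgeR. Gpt, an alanine aminotransferase, had 719.7 and 277 CPM in the TKO-tagged, 12.4 and 9.95 CPM in the Sox9-derived and 26.6 and 27.8 CPM in the Ck19-derived libraries. The log2 fold changes against the Ck19-derived organoids were 4.30 for Gpt2, 2.00 for the aspartate aminotransferase Got2, 1.86 for the malate dehydrogenase Mdh1, 2.62 for the glycerol kinase Gk, 1.91 and 2.77 for the mitochondrial pyruvate carrier subunits Mpc1 and Mpc2, and 2.64 for Pfkfb1. The same 7 genes had 3.58, 2.04, 1.69, 3.11, 2.24, 2.40 and 2.80 against the Sox9-derived organoids, in the same order. Pdk4, which restrains pyruvate dehydrogenase, had 27.2 and 8.53 CPM in the TKO-tagged libraries and at most 0.0941 CPM in any organoid library. Gpd1 was called against the Ck19-derived organoids (3.51), and Got1 against the Sox9-derived organoids (1.80). Pfkl, the liver phosphofructokinase, fell (log2 fold changes -2.09 and -2.04), as did Ldhb, the heart-type lactate dehydrogenase subunit (-4.07 and -4.88), against the Ck19-derived and Sox9-derived pairs. Gapdh (-1.66) and Pgam1 (-1.55) were called lower against the Ck19-derived and Eno1 (-1.81) against the Sox9-derived organoids. These 3 and Aldoa have processed copies in the genome whose reads the mapping quality filter can remove, and their values are uncertain. Gk and Pfkfb1 lost their call against the Ck19-derived organoids, and Gk, Got1 and Mdh1 against the Sox9-derived organoids, when library totals replaced TMM factors.

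Among 30 regulators of the pathway, 14 rose against the Ck19-derived and 15 against the Sox9-derived organoids in edgeR, where 15% and 13.3% of all tested genes did. None of them was called lower, where 14% and 9.02% of all tested genes were. The median log2 fold changes were 1.32 and 2.06 against -0.07 and -0.01 over all genes, and 24 and 23 of the 30 reached the filter in both libraries of the organoid pair. Gcgr, the glucagon receptor, had 162 and 208 CPM in the TKO-tagged libraries, no fragment in the Sox9-derived libraries and 0.0314 and 0.0305 CPM in the Ck19-derived libraries. Igfbp1, an insulin-repressed secreted protein, had 3153 and 1150 CPM in the TKO-tagged libraries, 0 and 0 CPM in the Sox9-derived and 0 and 0.0916 CPM in the Ck19-derived libraries. Fgf21, a fasting hormone, had 145 and 56.2 CPM in the TKO-tagged libraries and at most 0.408 CPM in any organoid library. Insr, the insulin receptor, was present in all, at 37.1 and 29.4 CPM in the TKO-tagged, 9.62 and 11.2 CPM in the Sox9-derived and 10.9 and 11.2 CPM in the Ck19-derived libraries.

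Transcription factors differed in how much of them the organoid libraries held. Creb3l3 had 269.9 and 230.4 CPM, Nr0b2 117 and 631 CPM and Ppara 54.8 and 21.2 CPM in the TKO-tagged libraries, and the organoid libraries held at most 3.17 CPM of the first, 0.122 CPM of the second and 0.977 CPM of the third. Klf15, Nr1h3, Mlxipl, Foxa3 and Cebpa were called higher against both pairs, with log2 fold changes of 5.74, 5.93, 5.51, 3.55 and 4.62 against the Ck19-derived organoids and 6.39, 4.99, 4.83, 4.60 and 2.79 against the Sox9-derived organoids, in that order. Hnf4a, a regulator of many hepatocyte genes, had 169.5 and 263 CPM in the TKO-tagged, 104 and 82.4 CPM in the Sox9-derived and 136 and 129 CPM in the Ck19-derived libraries (log2 fold changes 1.46 and 2.01 against the Ck19-derived and Sox9-derived pairs). Cebpb had 1.58 and 1.25, and Irs2, an adaptor of the insulin receptor, was called against the Sox9-derived pair (2.35). Foxo1 and Ppargc1a, known activators of Pck1 and G6pc, were not called in either comparison. Foxo1 had 26.1 and 52.2 CPM in the TKO-tagged, 31.1 and 49.2 CPM in the Sox9-derived and 32.4 and 33.1 CPM in the Ck19-derived libraries. With library totals the calls of Hnf4a and Cebpb against the Ck19-derived pair and of Cebpb and Irs2 against the Sox9-derived pair were lost. Over the 50 and 49 genes called in the 5 lists against the Ck19-derived and Sox9-derived organoids, none changed its sign with library totals or with relative log expression factors.

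**Figure D3:**
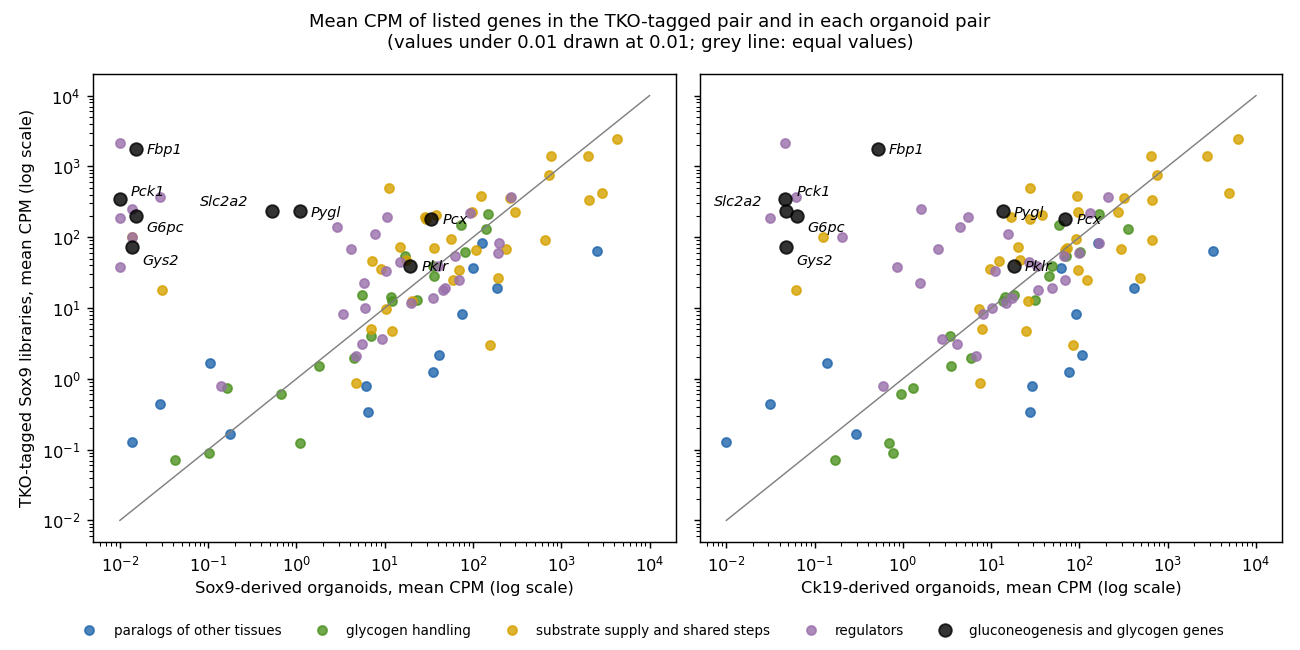
Mean CPM of the listed genes, less the 3 not reported here, in the TKO-tagged pair (vertical, log axis) against the Sox9-derived pair (left) and the Ck19-derived pair (right; both horizontal, log axes), with values under 0.01 drawn at 0.01 and a grey line where both are equal. Fbp1, Pck1, G6pc, Gys2 and Slc2a2 (black) lie to the left with several regulators, at 0.526 CPM or less of the organoid pairs. Pcx and Pklr lie above the line but nearest to it among the black points. Pygl lies at 1.09 CPM of the Sox9-derived and at 13.7 CPM of the Ck19-derived pair.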

How the data were processed

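The deposited values are raw fragment counts. Per the file headers, the authors ran featureCounts (v1.5.0-p3) with the GRCm38 gene models of Ensembl release 87, using pairs with both ends mapped, primary alignments, mapping quality of at least 10 and no strand. Per the submitters' processing notes, reads were aligned with tools that include STAR 2.5.4b. Duplicates were to be ignored, but none were marked, so PCR copies count as fragments. Of the fragments in each library, 51.5% to 59.7% were assigned to genes and 33.2% to 40.9% were dropped for low mapping quality, which lowers genes with near-identical copies. The deposited counts were not normalized. Columns were tied to samples by name, and 4 count columns that matched no label were not used.

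From the counts, CPM was computed on library totals and FPKM on the listed exon length. Genes passing filterByExpr (minimum count 10) were scaled by TMM and tested with edgeR 4.0.16 (quasi-likelihood, two-sided, adjusted p under 0.05) in R 4.3.3. Each comparison had its own fit of 4 libraries and its own TMM factors. These ran from 0.992 to 1.01 between the organoid pairs. With the TKO-tagged pair they ran from 0.750 to 1.32 (Ck19-derived) and from 0.739 to 1.32 (Sox9-derived). Factors over the 6 libraries together were 0.669, 0.727, 1.21, 1.19, 1.18 and 1.20, TKO-tagged first. They served only for CPM with TMM-scaled library sizes. The TKO-tagged columns entered first as another reading of the Sox9-derived samples, and their comparison with the Sox9-derived pair was added after seeing the data. The standard error is the log2 fold change divided by the square root of F. Alternatives were relative log expression factors, library totals, DESeq2 1.42.0, limma-voom (limma 3.58.1), no count filter, a replicate block and leaving out each library. The test was also tried on simulated data. Chi-square per gene within the pairs was 412, 118 and 62.8, so all libraries were kept apart.

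The 8 genes and the lists were chosen with earlier results of these data known. The rule for named genes takes all 8, every called gene of the 4 related lists (3 of them are counted but not reported here), and the 3 with the highest mean FPKM where a list had no call. Foxo1, Ppargc1a, the sister-gene shares, the motifs and the sex-linked and Rb family genes were chosen after values were seen. Symbols matched 49326 of 49585 gene IDs.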

Additional observations from a re-analysis of the deposited data

How the results depend on the processing

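Between Sox9-derived and Ck19-derived organoids, 95 genes, 0 of the 8 genes and 0 related genes were called. DESeq2 called 1512, 1 and 14, and no count filter gave 506, 1 and 2. The TKO-tagged columns in place of the untagged Sox9 columns gave 5190, 8 and 42. The signs of Fbp1 (12.48), Pcx (2.17) and Pygl (4.83) were then turned. The Fbp1 value depends on the prior count, so only its sign is read. Leaving out each library gave 0 to 1394 genes, 0 to 2 of the 8 and 0 to 17 related genes, and Pklr (0.10 with all 4) ran from -0.13 without Sox9-derived replicate 2 and -0.10 without Ck19-derived replicate 2 to 0.30 without Sox9-derived replicate 1. Against the Ck19-derived organoids the TKO-tagged libraries had 5190 genes, 8 of the 8 and 42 related genes, and 881 to 6976, 5 to 8 and 13 to 55 with each library left out. Against the Sox9-derived organoids they had 3876, 8 and 41, and 848 to 2026, 5 to 7 and 11 to 33 with each library left out, while library totals gave 5866 genes and DESeq2 5982. Pklr missed the threshold there in limma-voom (adjusted p = 0.0555). With TMM-scaled library sizes, 6 of 24 mean CPM values moved by more than 1 SD, among them Fbp1 to 2553 CPM in the TKO-tagged pair. The causes of these shifts were not tested. With 2 libraries a group, a low count of calls does not show that levels are alike, and genes with a few fragments are limited by depth.

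The replicate numbers of the columns are not stated to mark a shared animal or day, and the deviations of same-numbered libraries correlated by 0.0801, 0.0735 and 0.0691 in the 3 comparisons in the order above. A fit with the replicate number as a block called 0, 3319 and 1214 genes, 0, 8 and 6 of the 8 genes and 0, 38 and 21 related genes in that order. In the comparisons with the TKO-tagged pair these counts of the 8 are not read, for the reason given above.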

Other observations

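Some genes of sugar metabolism differed between the TKO-tagged libraries themselves. Gys1, the muscle-type glycogen synthase, had 0 fragments in replicate 1, which allows up to 0.0563 CPM at its depth, and 148 fragments (2.48 CPM) in replicate 2. The Sox9-derived libraries had 31.5 and 39.3 CPM of Gys1 and the Ck19-derived libraries 102 and 52.0 CPM. Fbp2, the muscle fructose bisphosphatase, had 0 and 40 fragments in the TKO-tagged libraries, and Nhlrc1, the laforin partner malin, had 3.94 and 0 CPM there, against 2.10 and 6.88 CPM in the Sox9-derived and 3.61 and 8.18 CPM in the Ck19-derived libraries. These genes were picked after their values were seen, and no difference between single libraries was tested.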
